A study of Mus musculus with 2 samples.

Results

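The genes described here carry the symbols Zbtb, Klhl or Btbd followed by a number, and were selected by name from a table that pairs ELAVL2 RIP peaks of newborn mouse ovary with genes. Pseudogenes were left out by their description. There, 50 such genes were paired with a peak, of 11969 paired genes in all, and 41 of them were overlapped by a peak, of 6158 overlapped genes in all. The overlapped genes, which form the main set, comprised 22 Zbtb, 16 Klhl and 3 Btbd genes.

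The series holds 1 RIP sample, precipitated from a lysate of whole P0 ovaries with 5 µg of an antibody against the RNA-binding protein ELAVL2, and 1 input sample, 5% of the same kind of lysate with no antibody. The labels name neither a strain nor a genotype, give 100 newborn ovaries as homogenised, and therefore describe a pool of animals and of all ovarian cell types. With 1 sample per arm there is no replicate check, no p-value is given, and every fold is the authors' own ratio of RIP to local input at a peak. No control pulldown is among the samples, so ELAVL2-bound RNA and RNA held by beads or antibody cannot be told apart, and in whole ovary fewer cells of a type and less RNA per cell cannot be told apart. After tags at 1 position and strand were reduced to 1, the RIP kept 13787676 of 172711531 aligned tags (7.98%). The input kept 19479946 of 210270620 (9.26%). Peaks overlapped 3 of 6 oocyte genes (Ddx4, Dazl and Kit) and 0 of 4 pregranulosa genes, where 23.4% of all coding genes were overlapped, but a peak is enrichment over input and not a level in the lysate, so the tissue label could not be checked by its markers.

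All 3 name groups share the BTB domain, a fold through which proteins pair with each other and recruit partners. Zbtb proteins join it to zinc fingers and are mostly transcriptional repressors that set cell lineages. Klhl proteins join it to a Kelch propeller and to a BACK domain, and many of them act as adaptors that bring a substrate to the cullin CUL3, a ubiquitin ligase scaffold. Btbd proteins carry a BTB domain with various other parts. ELAVL proteins bind U-rich and AU-rich stretches in introns and 3' untranslated regions of other RNAs and alter their splicing, stability or translation. 2 of the table's symbols name a place and not a BTB protein: Zbtb8os encodes archease, a factor of tRNA ligation, and Zbtb11os1 is a noncoding RNA.

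The Zbtb genes were overlapped most often. Of 41 protein-coding Zbtb genes in the reference annotation 22 were overlapped by a peak (53.7%, exact Clopper-Pearson 95% interval 37.4 to 69.3, which covers counting only), of 37 Klhl genes 16 were (43.2%, 27.1 to 60.5), and of 42 Btbd genes 3 were (7.14%, 1.50 to 19.5). Over all 21896 protein-coding reference genes the share was 23.4%. The Btbd denominator held 29 Btbd35f genes, a cluster on the X chromosome, and 0 of them were overlapped. Among the other 13 Btbd genes the share was 23.1% (5.04 to 53.8), close to that of all coding genes. The Zbtb and Klhl intervals lay above 23.4%, and the Klhl and Zbtb intervals overlapped each other. With the nearest genes counted too, 24 of 41 Zbtb, 21 of 37 Klhl and 6 of 42 Btbd genes were paired with a peak, where 31.8% of all coding genes were. The 6 include 2 Btbd35f genes that are not among the 50 selected by name. Without Btbd35f genes 4 of 13 Btbd genes were paired (30.8%, 9.09 to 61.4).

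The median reference length of the Zbtb genes was 18.3 kb and that of the Klhl genes 26.8 kb, against 17.1 kb over all coding genes. The length classes below use the reference body, while overlap was called in the deposited body. Zbtb46, with a deposited body of 71.7 kb, thus stands above 100 kb. Among genes under 20 kb, 10 of 21 Zbtb and 3 of 14 Klhl genes were overlapped, where the share of all coding genes was 10.9%. Among genes of 20 to 50 kb, 9 of 15 Zbtb and 7 of 12 Klhl genes were, where the share was 28.6%. From 50 to 100 kb, 0 of 1 Zbtb and 2 of 4 Klhl genes were, where it was 41.2%. Above 100 kb, 3 of 4 Zbtb and 4 of 7 Klhl genes were, where it was 55%. In both length classes that held more than 4 Zbtb genes, their share lay above that of all coding genes. Expression in ovary of the genes without a peak was not analysed here, and its part in these shares was not tested.

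**Figure D1:**
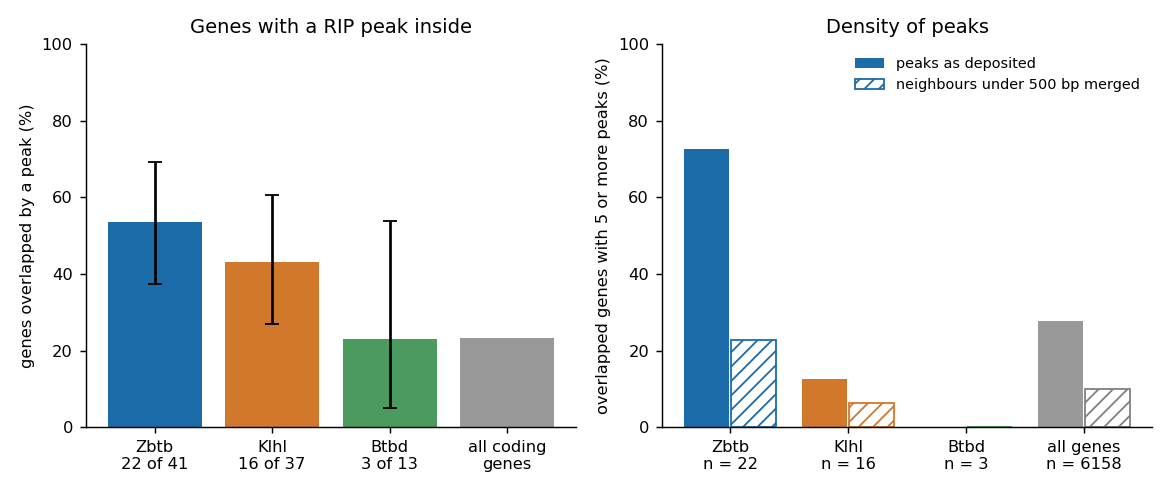
Left, percent of protein-coding reference genes overlapped by a RIP peak in each name group (Btbd without Btbd35f genes; bars are shares, error bars exact 95% binomial intervals) and in all coding genes (23.4%). Right, percent of overlapped genes that held 5 or more peaks, as deposited (filled) and after merging peaks under 500 bp apart (hatched); Zbtb stands at 72.7% and 22.7%, all overlapped genes at 27.7% and 9.89%.

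The groups differed more in how many peaks a gene held. A Zbtb gene held a median of 6 peaks, a Klhl gene 2, a Btbd gene 1 and any overlapped gene 2. Of the 22 Zbtb genes 16 held 5 or more peaks (72.7%), of the 16 Klhl genes 2 did (12.5%) and of the 3 Btbd genes 0 did, against 27.7% of all overlapped genes. Many of these peaks were neighbours in one stretch. After merging peaks less than 500 bp apart, 5 Zbtb genes (22.7%) and 1 Klhl gene (6.25%) still held 5 or more, against 9.89% of all overlapped genes. The median Zbtb gene then held 2, the median Klhl gene 1 and the median of all overlapped genes was 1. Gene length and number of peaks had a Spearman correlation of -0.06 over the 41 members, a description over genes of the same pair of samples.

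The median best fold of a gene was 4.92 for Zbtb, 4.55 for Klhl and 4.10 for Btbd genes, against 4.38 for all overlapped genes. In the order Zbtb, Klhl and Btbd the medians were 4.04, 2.99 and 2.65 with pileups of 20 or more. Such peaks were held by 18, 9 and 2 genes. Without the pseudocount the medians were 6.46, 7.30 and 8.48, so the order of the groups reversed. No median over all overlapped genes is given at either setting. A best fold of at least 5 was reached by 9 of 22 Zbtb, 6 of 16 Klhl and 1 of 3 Btbd genes, where 39.9% of all overlapped genes reached it. A peak with a -log10 q of at least 8 was held by 11 Zbtb, 3 Klhl and 0 Btbd genes, where 26.2% of all overlapped genes held one. The share of Zbtb genes past this q, 11 of 22, thus stood above the background, while the shares past the fold did not stand clear of it. This share was not adjusted for the number of peaks, a median of 6 in Zbtb genes and 2 in all overlapped genes. Per peak, the median -log10 q was 4.42 in Zbtb genes and 4.05 in all genes.

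**Figure D2:**
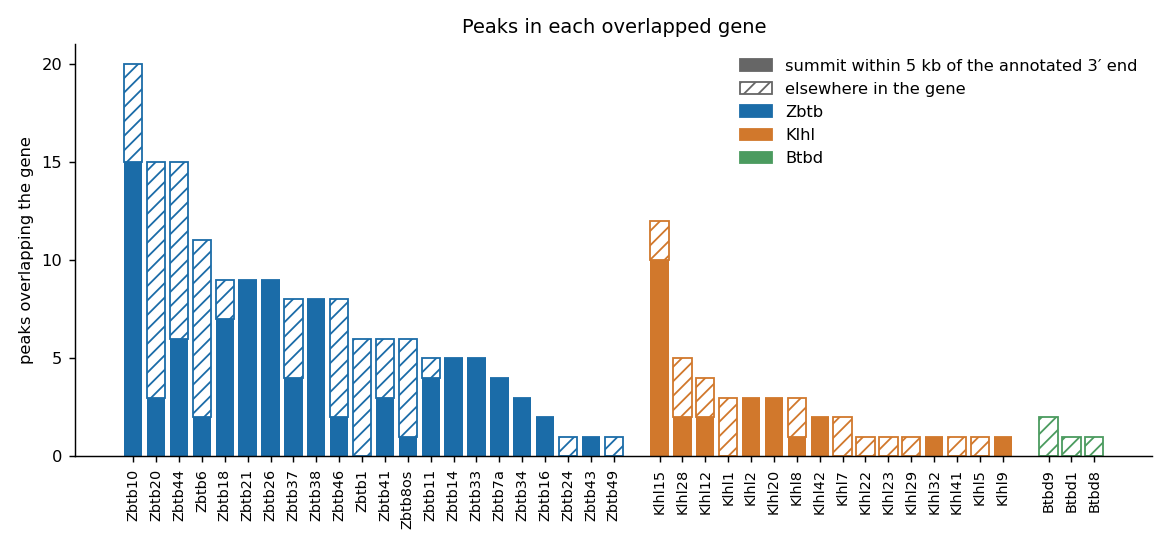
Number of peaks overlapping each of the 41 genes, in the order Zbtb, Klhl and Btbd and by falling count within each; the filled part counts peaks whose summit lay within 5 kb of the annotated 3' end and the hatched part those elsewhere. Zbtb10 holds 20 peaks, 15 of them near its 3' end, and no Btbd gene holds a peak there in its deposited body.

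Among the Zbtb genes, Zbtb18 had the most confident peak. Zbtb18 encodes a repressor, also called RP58, that is needed for development of the cerebral cortex. Its body (ENSMUSG00000063659, chromosome 1, 177442351 to 177450764, mm10, plus strand) is only 8.41 kb long and held 9 peaks. The peak at its 3' end, at 177450561 to 177450752, had a RIP pileup of 71 tags (how many extended tags cover the summit) against a local input level of 14.9, a 4.54-fold enrichment with a -log10 q of 19.4, the largest of any member. The largest fold lay at the other end. At 177442456 to 177442609 the RIP pileup was 21 against an input level of 2.12, a fold of 7.04. That peak also overlapped Gm26801, and the called peaks carry no strand, so the 2 genes cannot be told apart there.

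The gap between the start of Zbtb18 and this first peak was 105 bp. The 250 bases before the start (RefSeq, GRCm38.p6, chr1:177442101-177442350, plus strand) are shown to mark where the peak lies relative to the promoter, with the letters GGGCGG and, for the opposite strand, CCGCCC in capitals.
Zbtb18 upstream: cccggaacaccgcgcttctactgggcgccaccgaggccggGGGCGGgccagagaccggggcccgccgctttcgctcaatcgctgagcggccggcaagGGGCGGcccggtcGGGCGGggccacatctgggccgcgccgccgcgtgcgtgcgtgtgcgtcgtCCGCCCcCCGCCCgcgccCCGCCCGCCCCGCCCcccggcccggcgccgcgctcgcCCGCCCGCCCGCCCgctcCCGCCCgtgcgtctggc
This stretch was 84% G or C and held the letters 3 times on the strand of the gene and 9 times on the other, some of them overlapping. At least 1 match on either strand was found in 29 of 49 Zbtb, 22 of 41 Klhl and 9 of 25 Btbd promoter windows of this length, and in 32.7% of all 32851 windows. A match describes letters in the window and no binding. The windows came from 87 of 120 reference members. Sequence under the peaks themselves was not used here.

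Zbtb46, a transcription factor of classical dendritic cells, had the largest fold of the main set. In its body (chromosome 2, 181387762 to 181459426, 71.7 kb, minus strand) 8 peaks were called in 2 places. In the middle of the gene, 30077 to 35157 bp from the 3' end, 6 peaks had folds of 4.44 to 8.51. The highest of these, at 181417713 to 181417911, had a RIP pileup of 11 against an input level of 0.41, and the most confident, at 181421665 to 181421769, a pileup of 23 against 2.12, a 7.68-fold enrichment with a -log10 q of 11.9. At the deposited 3' end 2 further peaks had pileups of 38 and 46 and folds of 4.11 and 1.88. The reference body runs further, from 181371009 to 181493262, so these 2 peaks do not lie at its 3' end. The mid-gene peaks were therefore the thinner and steeper ones, and those at the deposited end the taller and flatter ones.

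Zbtb20, a repressor that acts in hippocampal development and silences alpha-fetoprotein in liver, showed the same 2 kinds of place on a larger scale. Of its 15 peaks (chromosome 16, 42875881 to 43642602), 8 lay between 426551 and 449257 bp from the annotated start, with pileups of 8 to 27 and folds of 3.05 to 6.16. A further 5 lay in the last 10% of the body, with pileups of 17 to 38 and folds of 2.11 to 3.34. The remaining 2 lay 10373 and 186427 bp from the start at pileups of 6 and 5. In the reference body, which ends earlier at 43634392, 12 of these peaks were found.

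Zbtb10, a repressor described in human cancer cells, held the most peaks of any member, 20, in a body of 34.7 kb (chromosome 3, 9250602 to 9285333). Of these 15 had their summit within 5 kb of the 3' end, at a median fold of 2.58 and a median pileup of 39. The best fold, 4.94 over a RIP pileup of 30 against an input level of 5.27, lay at 9264985 to 9265034, 14400 bp from the start. Zbtb44 held 15 peaks in 45.2 kb, of which 6 were within 5 kb of the end, and its best fold was 5.33 over a RIP pileup of 30. Zbtb21 held 9 peaks, all within 2188 bp of its 3' end (chromosome 16, 97947435 to 97962621), with folds of 3.34 to 5.84, pileups of 22 to 35 and a best -log10 q of 12.2. The last 5 kb thus carried most peaks of Zbtb10 and all of Zbtb21, while in Zbtb44 9 of the 15 lay further inside.

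**Figure D3:**
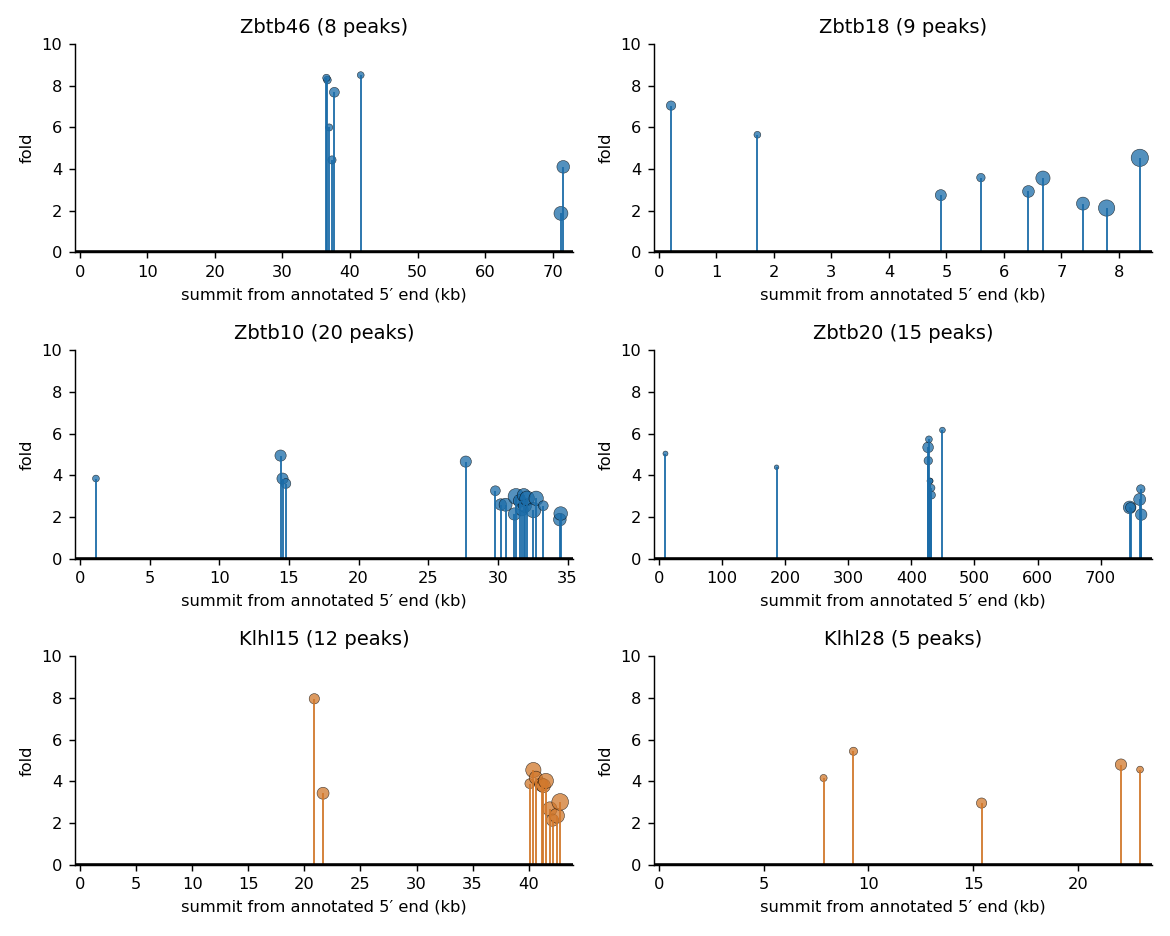
Peaks along 6 genes; the x axis is the distance of the summit from the annotated 5' end in kb, the height is the fold of RIP over local input, and the area of a point grows with the RIP pileup. The steepest peaks of Zbtb46, Zbtb20 and Klhl15 stand mid-gene with small points, and the large points stand near the 3' end of the deposited body.

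Of the 12 Zbtb lineage and repressor factors listed, 7 were overlapped (58.3%, against 53.7% of Zbtb genes and 23.4% of all coding genes). With 12 genes, this share cannot be set apart from that of the Zbtb genes. The 7 were Zbtb18, Zbtb20 and Zbtb46 as above, and Zbtb1, Zbtb7a, Zbtb16 and Zbtb24. Zbtb1, which is needed for lymphoid development, held 6 peaks in one stretch of the gene, 8445 to 10385 bp before its 3' end, with a best fold of 4.23 over a RIP pileup of 29. Zbtb7a, a repressor of fetal globin genes, held 4 peaks in its last 2026 bp with a best fold of 3.62 over a RIP pileup of 41, and with nearest genes counted its best fold was 7.03. Zbtb24, mutated in a human syndrome of immunodeficiency and centromere instability, held 1 peak with 7 RIP tags at the lowest possible input level, 0.369, which gave a fold of 5.85. Zbtb32 was paired only with peaks outside its deposited body, and Zbtb7b, Zbtb7c, Zbtb17 and Zbtb42 were not paired with a peak.

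Of the 3 Zbtb proteins that bind methylated DNA, 2 were overlapped (66.7%, against 53.7% of Zbtb genes and 23.4% of all coding genes). A share of 3 genes cannot be set apart from either. Zbtb33, which encodes Kaiso, held 5 peaks in its last 1258 bp (best fold 3.67 over a RIP pileup of 39), of which 2 also overlapped Tmem255a. Zbtb38 held 8 peaks, all within 2310 bp of the 3' end, with folds of 2.24 to 3.42 and pileups of 25 to 46. Zbtb4 was not paired with a peak. Both overlapped genes had their peaks at the 3' end alone.

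Some Zbtb peaks belong to more than 1 gene. Zbtb6 and Zbtb26, neighbours on chromosome 2, shared 9 peaks (best fold 4.89 over a RIP pileup of 16), since the deposited body of Zbtb6 runs through Zbtb26. Only 2 peaks, with a best fold of 2.94, were in Zbtb6 alone, and the reference body of Zbtb6, of 5.42 kb, held those 2. Zbtb37 shared 4 of its 8 peaks with Serpinc1, while its best, a fold of 7.06 over a RIP pileup of 11, lay in Zbtb37 alone. Zbtb11 shared 4 of its 5 peaks with Pcnp. The other Zbtb genes were overlapped by 1 to 6 peaks: Zbtb49 (1 peak, fold 6.48 over a RIP pileup of 8), Zbtb8os (6, best 5.07), Zbtb41 (6, 4.80), Zbtb14 (5, 3.53), Zbtb43 (1, 3.27) and Zbtb34 (3, 3.16).

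Among the 16 Klhl genes overlapped in their deposited bodies, Klhl15 stood first in best fold, -log10 q and number of peaks. Klhl15 encodes a CUL3 adaptor that directs a regulatory subunit of the phosphatase PP2A to degradation. Its body (ENSMUSG00000043929, chromosome X, 94234599 to 94277724, plus strand) held 12 peaks, of which 10 lay within 3027 bp of the 3' end. The best fold was mid-gene, at 94255461 to 94255566, with a RIP pileup of 25 against an input level of 2.26, a fold of 7.96. The most confident peak was near the end, at 94274866 to 94275180, with a pileup of 55 against 11.3, a 4.54-fold enrichment with a -log10 q of 15.1. The largest RIP pileup, 66 against 21.2, stood at the last peak, 94277223 to 94277671, at a fold of 3.01.

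The cluster at the 3' end of Klhl15 began 46 bp after the annotated microRNA mmu-miR-7673-3p on the same strand. Its mature sequences (RefSeq) are shown because the cluster begins beside them, with the seed, bases 2 to 8, in capitals.
mmu-miR-7673-5p: uUUGACUGagagguaaggaaug
mmu-miR-7673-3p: uUCCUUACcucaccgucaaagga
The 5p arm lies at chrX:94274574-94274595 and the 3p arm at chrX:94274615-94274637 (GRCm38.p6). No peak overlapped either arm, and the cluster lies wholly on their 3' side.

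Of the 13 Klhl genes listed as CUL3 adaptors of known substrate or process, 8 were overlapped, including Klhl15. This share of 61.5% stood against 43.2% of Klhl genes and 23.4% of all coding genes. With 13 genes it cannot be set apart from the Klhl share. Klhl2, which with Klhl3 controls WNK kinases, held 3 peaks within 3187 bp of its 3' end (best fold 3.49 over a RIP pileup of 42, -log10 q 8.03). Klhl12, which acts on the COPII coat protein SEC31, held 4, with a best fold of 4.55 over a RIP pileup of 10. Klhl20 held 3, all within 697 bp of its 3' end, with a best fold of 2.99 over a RIP pileup of 38, and Klhl42, an adaptor for the microtubule-severing protein katanin, had 2 peaks with the same best fold and pileup. Klhl7 (best fold 2.32) and Klhl9 (1.85), the second an adaptor for the mitotic kinase Aurora B, had tall and flat peaks at pileups of 49 and 44. Klhl22, an adaptor for a regulator of mTORC1, held a single peak, of fold 3.65 over a RIP pileup of 13. Klhl25 was paired only with a peak 18620 bp away, and Klhl3, Klhl13, Klhl21 and Klhl24 were not paired.

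Other Klhl genes had their best fold on few tags. Over all peaks the median fold was 5.85 at input levels of 0.3 to 0.5 and 5.84 at 0.5 to 1. Klhl28 held 5 peaks, none of them paired with any other gene, with a best fold of 5.44 over a RIP pileup of 16 and a best -log10 q of 9.24. Klhl5 (fold 5.92 over a RIP pileup of 8) and Klhl29 (5.85 over a RIP pileup of 7) held 1 peak each. Klhl1, a gene of 414 kb that encodes an actin-binding protein of brain, held 3 scattered peaks with pileups of 6 to 8 and folds of 5.11 to 5.27. Klhl8 held 3, among them 1 near the 3' end with a pileup of 52 and a fold of 2.46, and its best fold of 5.26 stood on 7 tags. Klhl23 (4.55), Klhl32 (4.68) and Klhl41 (4.10) held 1 peak each, at pileups of 10, 6 and 6. Of the 8 muscle and testis genes listed, Klhl41, a sarcomere gene, was the 1 overlapped in its deposited body (12.5%, against 23.4% of all coding genes). A gap of this size cannot be resolved with 8 genes. Klhl33, also on this list, held 4 peaks in its longer reference body, as described below. Klhl10, which is needed in spermatids, was not paired.

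The Btbd genes gave 4 peaks in all. Btbd9, a gene linked to restless legs syndrome in humans, held 2 in 361 kb, with RIP pileups of 8 and 34 and folds of 5.27 and 2.55. Btbd1, whose product binds topoisomerase I, held 1 with a fold of 4.10 over a RIP pileup of 6. Btbd8 held 1 with a fold of 2.76 over a RIP pileup of 35, shared with Gm9727. None of the 4 lay within 5 kb of the 3' end of its deposited body. The reference body of Btbd8, which ends at 107512560 on chromosome 5 (plus strand), held a further peak near that end, at 107511066 to 107511133, with a fold of 5.07 and a RIP pileup of 17. With nearest genes counted, the best fold of Btbd8 was 5.11. Btbd2 was paired only with a peak in Mknk2, 8281 bp away.

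Over all members, 174 peaks lay in exactly 1 gene, and the last 10% of the body held the summits of 80 of them (46.0%, 38.4 to 53.7). The share was 43.0% for Zbtb (34.3 to 52.0) and 58.1% for Klhl (42.1 to 73.0), against 46.6% over the 19371 such peaks of all genes. Within 5 kb of the 3' end the shares were 57.8% and 58.1%, against 53.6%. These intervals all held the value of all genes. In the first 10% of the body there were 2 of the 174 peaks of members (1.15%), against 4.68% of such peaks of all genes. The peak at the start of Zbtb18 is not among them, since it also overlapped Gm26801.

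Position went together with steepness. The 99 member peaks near the 3' end had a median fold of 2.99 at a median pileup of 35, and the 75 elsewhere 4.34 at a median pileup of 16. Their median input levels were 11.3 and 2.83. Over all genes the corresponding folds were 2.84 and 4.10, so the members followed the series. Keeping 1 tag for each position and strand also bounds the pileup, which reached at most 97 in any overlapped gene. The part of this bound in the lower folds near the 3' end was not tested. Exons were not used here, and these places are along whole gene bodies with introns.

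Over the 41 genes, the input level at the best peak and its fold had a Spearman correlation of -0.77, a description in which the level enters both measures. Each peak was therefore also set against all peaks in its class of input level. Of the 196 distinct member peaks 16 (8.16%, 4.74 to 12.9) had a fold above the 95th percentile of their class, which 4.88% of all peaks had. The interval held the value of all peaks. The share was 6.76% for Zbtb (3.29 to 12.1) and 13.6% for Klhl (5.17 to 27.4). These intervals count neighbouring peaks of 1 gene as separate. These 16 came from 7 genes. Klhl15 gave 6 of its 12 peaks, which merge to 3 places, and was the 1 Klhl gene among them. Zbtb10 gave 3, Zbtb18 and Zbtb46 2 each, and Zbtb20, Zbtb21 and Zbtb44 1 each.

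**Figure D4:**
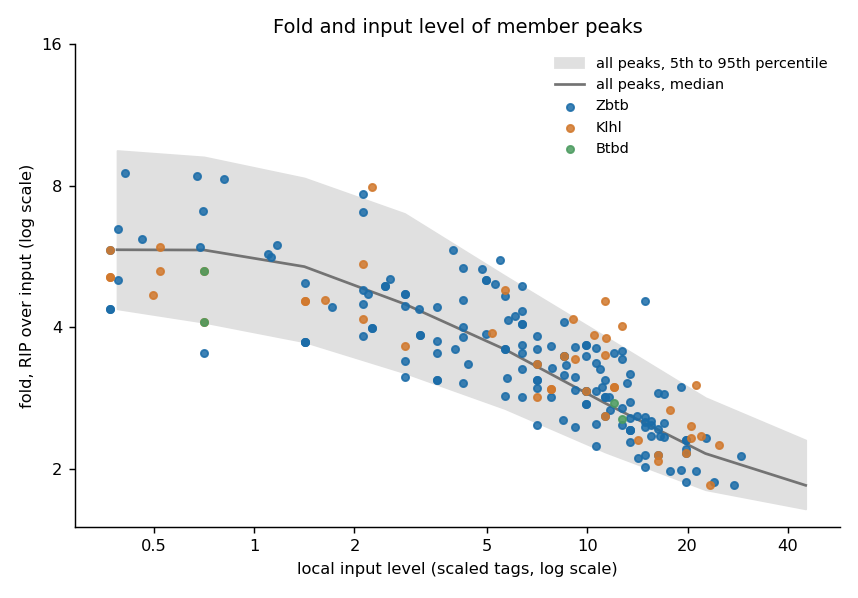
Fold of RIP over input (y, log scale) against the local input level in scaled tags (x, log scale) for each peak in a Zbtb, Klhl or Btbd gene; the grey line and band are the median and the 5th to 95th percentile of all 28332 peaks by class of input level. Most member peaks lie within the band, and 16 of 196 (8.16%) exceed the 95th percentile of their own class, against 4.88% of all peaks.

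Gene models changed the account of some members. Klhl33 and Klhl11 were not in the main set, as the deposited table paired 4 and 13 peaks with them only as downstream, but their reference bodies run further and contain these peaks. In Klhl33 (reference body on chromosome 14, 50888581 to 50897483, deposited body 50891389 to 50893255) 4 peaks had pileups of 14 to 22 and folds of 6.08 to 9.52, and the best -log10 q was 14.1. That best fold was larger than any in the main set. In Klhl11, an autoantigen in men with testicular germ cell tumours, the reference body (chromosome 11, 100457122 to 100472782) held 15 peaks with pileups of 27 to 55 and folds of 1.82 to 3.76, all beyond the deposited 3' end.

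Zbtb16 changed likewise. It encodes PLZF, which maintains spermatogonial stem cells. The deposited body held 2 peaks, with pileups of 8 and 11 and a best fold of 4.97, and the reference body held 5, with a best fold of 8.78 over a RIP pileup of 14 and an input level of 0.708, at 48651933 to 48651983 on chromosome 9, where the reference 3' end is 48651797. Btbd7, which acts in branching of the salivary gland, was not paired under that symbol, and its reference body held 4 peaks with pileups of 34 to 52 and folds of 1.91 to 2.92. The reference body of Zbtb32 held 2 peaks at the lowest input level (best fold 8.04 over a RIP pileup of 10). Counted by reference bodies, 23 Zbtb, 18 Klhl and 4 Btbd genes held a peak, where 24.1% of all coding genes did.

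**Figure D5:**
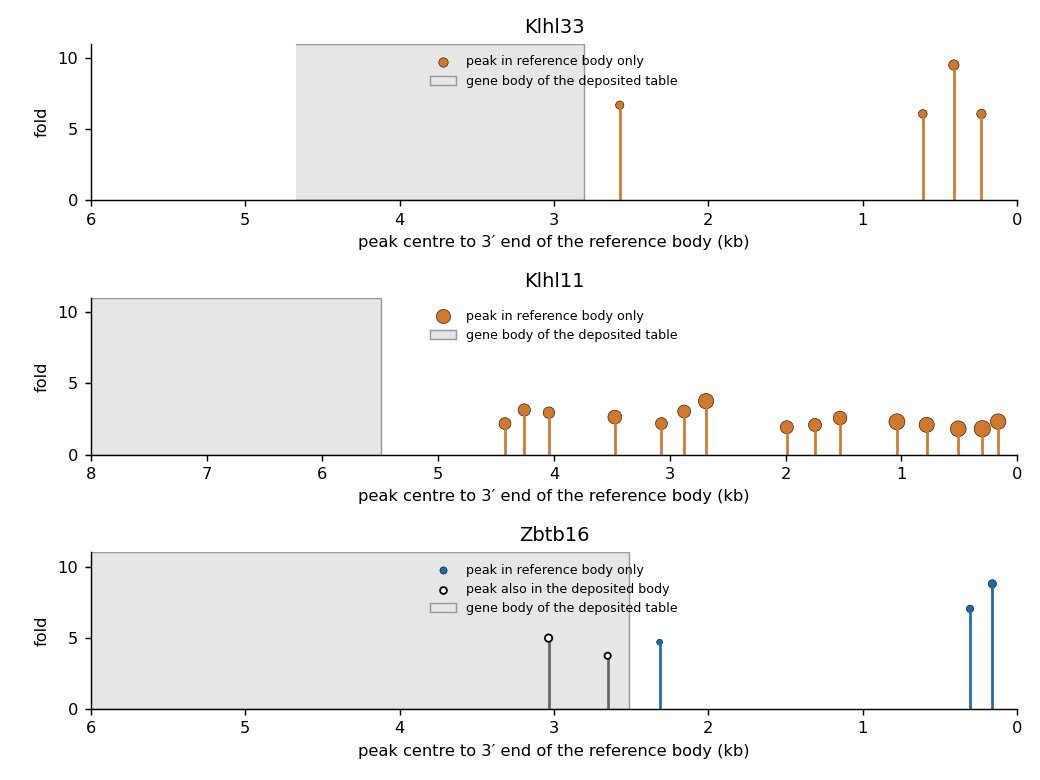
Peaks at the 3' ends of Klhl33, Klhl11 and Zbtb16; the x axis is the distance of the peak centre from the 3' end of the reference body in kb, the height is the fold, the area of a point grows with the RIP pileup and grey marks the gene body in the deposited table. Open points are peaks also counted in the deposited body; the 4 peaks of Klhl33 and the 15 of Klhl11 stand outside it.

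The remaining members were paired with peaks outside their bodies. All 7 peaks paired with Zbtb3 lay inside Ttc9c, 4239 to 6013 bp downstream of Zbtb3, and the peak paired with Zbtb11os1 lay inside Zbtb11. Klhl14 was paired with 6 peaks at 63036 to 156610 bp, of which 2 lay in Ccdc178. Klhl34 was paired with 3 peaks 1575 to 2916 bp upstream of it (best fold 5.53), which lay in no other gene of the table.

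Partners of the same machinery were also found. Of 10 genes of the CUL3 ligase core 5 were overlapped. Cul3 itself held 3 peaks (best fold 3.04 over a RIP pileup of 30) and the RING subunit Rbx1 3 (2.78 over 47). The NEDD8-activating enzyme subunit Uba3 held 1 (5.02 over 9). Of the cullin neddylation factors, Dcun1d1 held 20 (5.80 over 13) and Dcun1d3 19 (5.82 over 46). With pileups of 20 or more the best fold of Dcun1d1 was 4.35 and that of Dcun1d3 still 5.82. Of 14 BTB-Kelch genes with other names 7 were overlapped, while Keap1 was not paired. Among the 7 were Ipp (5 peaks, best fold 6.21 over a RIP pileup of 14) and Kbtbd8 (7, 5.44 over 16). With pileups of 20 or more their best folds were 2.99 and 3.42. Of 8 BTB zinc finger genes with other names 3 were (Hic2, Mynn and Zfp131), and of 12 other BTB adaptors 6 were, with the largest fold in Bach2 (7.04 over a RIP pileup of 16, at a peak overlapping 2 genes). Read against the 23.4% of all coding genes, these shares of 50%, 50%, 37.5% and 50% rest on 8 to 14 genes each.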

How the data were processed

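The submitters' processing notes name MACS2 2.1.0.20140616, TopHat2 2.0.8b, CASAVA 1.8.2 and FastQC 0.11.2, and the build mm10. The authors called, per the file headers, peaks on 3 pooled RIP lanes against 3 pooled input lanes, with 36-base tags extended to 50 bp, a q cutoff of 0.05, 1 tag kept for each position and strand, and the larger library scaled down. The deposited signal is the RIP pileup at the summit. The deposited fold is a ratio of RIP pileup to scaled local input, each with 1 added as pseudocount, and the -log10 p and q values are the authors' own. For the deposited gene table no tool is given in the sources used here; 42176 exact repeats among its 85730 lines were dropped.

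Solving the fold for its denominator gave the input level, which is a local background (lowest value 0.369) rather than input tags counted at one base. Recomputed -log10 p values lay within 5.62e-05 of those deposited. The caller ignores strand and splicing. Overlap means a location other than upstream or downstream. Reference bodies are those of GRCm38.p6, the assembly of mm10, and symbols were matched directly or by an older symbol of 1 gene. The step for positions, levels and merging was tested on simulated data. Values were computed in Python 3.11.15 with scipy 1.17.1, pandas 2.3.3, numpy 2.4.6 and, for plots, matplotlib 3.10.9.

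Members and gene lists were chosen with earlier results of these data known. Genes described were, per prefix, the 6 with the largest best fold, the 4 with the largest -log10 q and the 4 with most peaks, and list members. The remaining members, the count of genes with 5 or more peaks, the classes of input level and the bases before Zbtb18 were chosen after their values were seen. Alternatives were stricter q, fold and pileup thresholds, peaks paired with 1 gene, nearest genes, reference bodies, merged peaks and a fold without pseudocount.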

Additional observations from a re-analysis of the deposited data

How the results depend on the processing

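The counts of overlapped Zbtb, Klhl and Btbd genes (22, 16 and 3) stayed within 1.5 times under most alternatives. With peaks paired with exactly 1 gene they fell to 13, 7 and 1, 21 in all, and with pileups of 20 or more Klhl fell to 9. The share of all coding genes was not computed at these settings. The 16 Zbtb genes with 5 or more peaks became 10 at a fold of at least 3 and 4 with peaks paired with exactly 1 gene. No share over all genes was computed for either. They became 5 of 22 after merging, where 9.89% of all overlapped genes held as many. With pileups of 20 or more they were 11, against 18.9%, and with peaks overlapping no other gene 11, against 23.1%. The 2 Klhl genes became 1 at a fold of at least 3, with peaks paired with exactly 1 gene, after merging and with pileups of 20 or more. With nearest genes counted they became 4. The share of summits in the last 10% moved from 46.0% to 36.4% at a fold of at least 3, 62.0% at a pileup of at least 20 and 36.8% after merging. The median best fold of Klhl was 2.99 at a pileup of at least 20 and 7.30 without the pseudocount, that of Btbd 2.65 and 8.48, and that of Zbtb 4.04 and 6.46. Leaving out the pseudocount kept all 41 overlapped genes and changed only the ratio. An added 1 weighs most in that ratio at low input levels. The cause of the other moves was not tested, beyond the fewer peaks each stricter setting keeps. Of the best folds of 32 named members, 14 moved by over 1.5 times without the pseudocount, such as Zbtb46 (26.8, from 8.51) and Zbtb24 (19.0, from 5.85), and 4 did with pileups of 20 or more: Zbtb37 (4.00), Btbd9 (2.55), Klhl8 (2.96) and Klhl12 (2.93). Of these members 9 had no peak at a pileup of at least 20, and 16 had none paired with exactly 1 gene, among them Zbtb18, Zbtb46 and Klhl15, where the table gives every peak a second gene. Folds on 5 to 10 tags rest on few reads. No paired analysis was possible because each arm is 1 sample. No share for the last 10% was computed with reference bodies. Pairing by overlap with 1 gene only, leaving out Zbtb8os and the count of genes with 5 or more peaks were chosen after seeing the data.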
